A study of Mus musculus with 18 samples.

Results

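The Wnt ligands, their receptors and their secreted antagonists were followed in the vestibular organ of the mouse, which serves balance, before birth, in the third postnatal week and in the adult. The set is defined by gene symbol. It holds 45 of the 19938 genes measured: 19 Wnt ligands, 4 R-spondins, 10 Frizzled receptors, the co-receptors Lrp5 and Lrp6, 4 Sfrp genes with Wif1, 4 Dickkopf genes, and Axin2. All 45 had a value in every array, 44 of them from 1 probe set and Wnt4 from 2.

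Vestibular organs of Igf1 -/- mice, which carry no functional copy of the gene for insulin-like growth factor 1, were compared with those of Igf1 +/+ mice at E18.5, P15 and P90. All groups shared a hybrid Mf1 and 129/sv background and none received a treatment other than perfusion with 4% paraformaldehyde before dissection. Each of the 6 groups had 3 arrays (Affymetrix Mouse Gene 1.1 ST, 18 in all), labelled as biological replicates, and the labels do not say how many animals went into an array. The description field of the P15 and P90 wild-type samples reads Igf1 -/-, whereas their title, source and genotype fields read +/+, which were followed here. The groups are called null and wild type below.

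Wnt proteins are lipid-modified, secreted signals. A Wnt bound to a Frizzled receptor and to Lrp5 or Lrp6 protects beta-catenin from destruction, and beta-catenin then switches on target genes with TCF and LEF factors, while other Wnt and Frizzled pairs act without beta-catenin, for example in planar cell polarity. R-spondins raise the number of Frizzled receptors at the surface, Sfrp proteins and Wif1 bind Wnt ligands outside the cell, and Dickkopf proteins such as Dkk1 block Lrp5 and Lrp6. In the inner ear, Wnt signalling is known for its part in the formation of the otic vesicle, in the growth of sensory progenitors and in the orientation of hair cells. It is also a main regulator of bone formation, and the vestibular organ lies within bone.

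Levels are quantile-normalised log values whose base is not given. A difference of 1 unit is a 2.72-fold change if the base is e and a 2-fold change if it is 2. Levels of different genes were not compared, because probes differ in brightness. In whole tissue, fewer cells of a type and less RNA per cell cannot be told apart. Of 14 measured hair cell markers 13 had a highest group mean above 3.4, the level under which 20% of all genes lay, as did all 9 otoconia and dark cell markers. Most genes lay above that level, so these counts do not show that the cells were captured. Igf1 itself was lower in every null array than in every wild-type array at E18.5 (6.40 to 6.88 against 6.98 to 7.07) and P15 (5.42 to 5.69 against 5.87 to 6.11) and overlapped at P90 (5.31 to 5.51 against 5.39 to 5.63), and it did not pass the test at any age. The array probes need not lie in the deleted part of the gene. E18.5 null arrays 2 and 3 and P90 wild-type arrays 1 and 2 stood together on a principal component. Xist, a marker of female cells, was at 1.86 to 3.33 in the 3 P90 wild-type arrays and at 7.42 to 7.91 in the 3 P90 null arrays. The mean level of Y-linked genes was 6.12 to 6.32 in the same wild-type arrays, 2.00 in P90 null array 1, and 5.44 and 5.49 in P90 null arrays 2 and 3, which thus carried both female and male signal. At P90, therefore, differences of genotype and of sex cannot be told apart. Sex signal also varied at P15: Xist was at 7.61, 8.09 and 4.09 in null arrays and at 7.48, 5.34 and 7.48 in wild-type arrays. The change from P15 to P90 in wild type thus also goes with a change in sex signal.

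Most members changed with age between E18.5 and P15, and no member passed the test between genotypes. In wild-type organs 23 members were lower and 6 higher at P15 than at E18.5 (limma, Benjamini-Hochberg adjusted p under 0.05 over all genes), which is 64.4% of the set against 41.5% of all genes. The members called lower made up 51.1% of the set, and 21.9% of all genes were called lower. Those called higher made up 13.3% of the set and 19.7% of all genes. The median difference was -0.34 for the members and -0.05 for all genes. In null organs 22 were lower and 7 higher, against 40.8% of all genes called in either direction (20.5% lower, 20.3% higher), and the medians were -0.39 and -0.04. In both genotypes 21 members were lower and 6 higher, whereas 15.2% of all genes were lower and 15.9% higher in both.

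**Figure D1:**
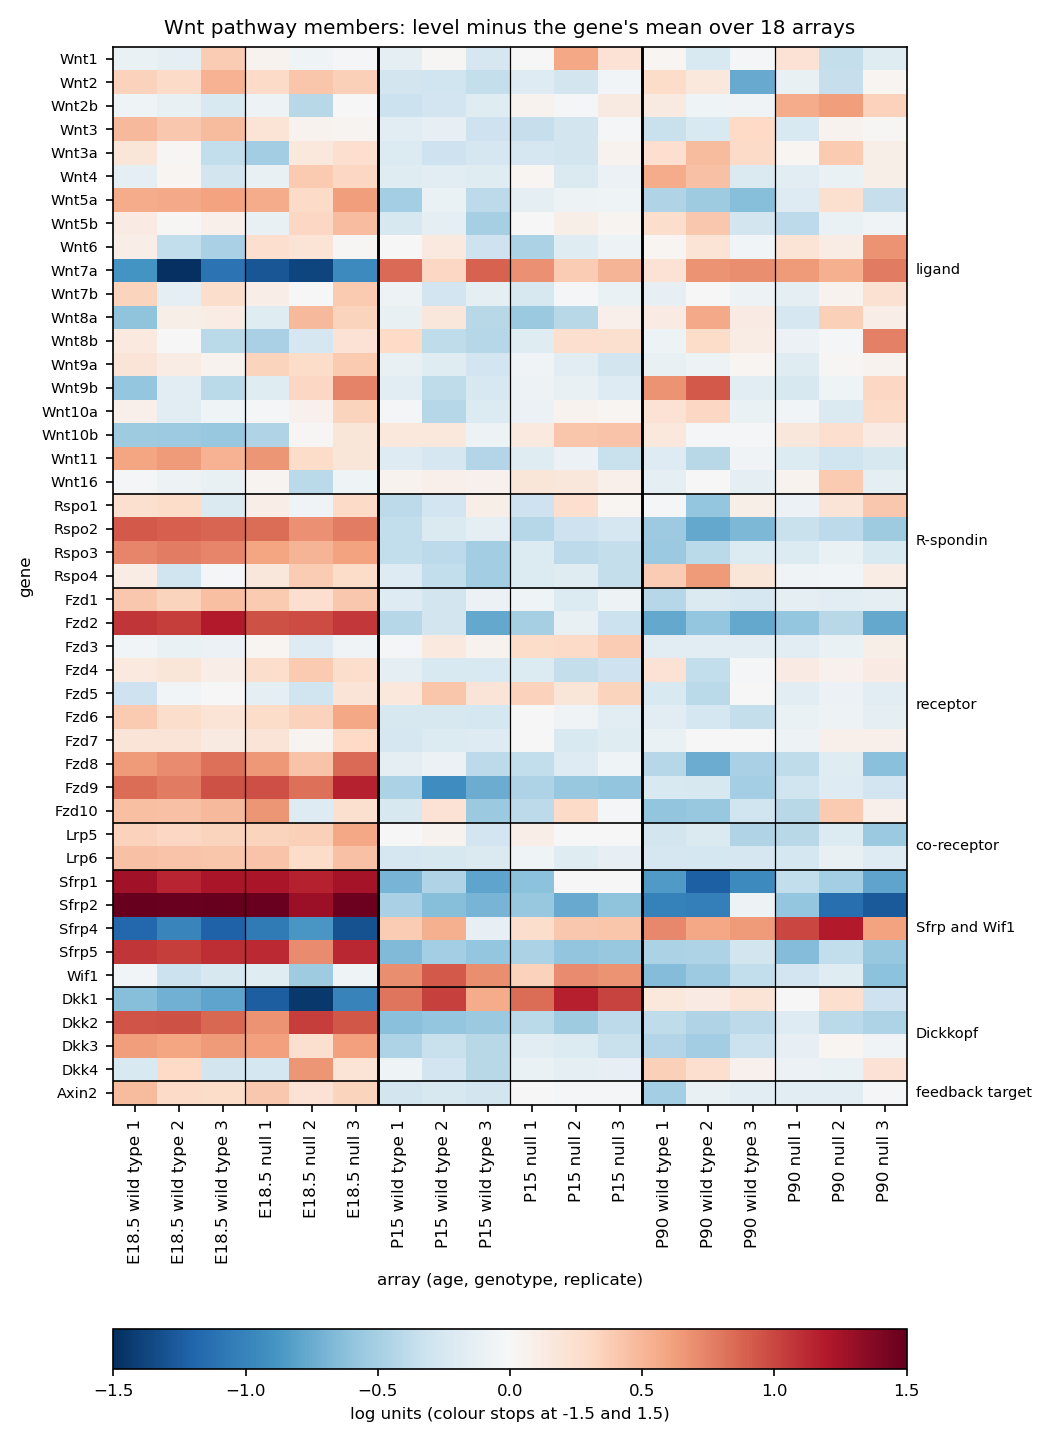
Level of each of the 45 genes (rows, grouped by role) in each of the 18 arrays (columns, by age, genotype and replicate), as the difference from that gene's mean over all arrays in log units, with colours stopping at -1.5 and 1.5. The block of E18.5 arrays at the left is set apart for Sfrp1, Sfrp2, Sfrp5, Fzd2, Fzd9, Rspo2, Rspo3 and Dkk2, which are high there, and for Wnt7a, Sfrp4 and Dkk1, which are low there.

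With the values as deposited, without scaling between arrays, the counts were 15 lower and 7 higher in wild type. In null organs they were 9 lower and 9 higher, so the calls there did not lean to falls. Over all 19938 genes, 5711 were called in wild type and 6524 in null organs. The median of all genes was then 0.11 higher in wild type and 0.25 higher in null arrays at P15, and the member medians were -0.19 and -0.07. The 13 members that passed in both genotypes under all 12 alternative settings, and with any single array left out, were Dkk1, Dkk2, Fzd2, Fzd8, Fzd9, Rspo2, Rspo3, Sfrp1, Sfrp2, Sfrp4, Sfrp5, Wif1 and Wnt7a. Only 6 members (Wnt1, Wnt3a, Wnt6, Wnt8a, Wnt8b and Rspo1) had a highest group mean under 3.4, and none of them was called between E18.5 and P15.

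The 250 bases before the start of transcription (RefSeq, GRCm38.p6) were searched for the letters that TCF and LEF factors prefer (the word CTTTGAA, the word CTTTGAT, the word CTTTGTA or the word CTTTGTT, each on both strands) and for TATAAA on the gene's own strand. Windows were found for 29 members, 32 in all because Wnt11 and Wnt5b have several starts. A TCF/LEF word was in 4 of the 32 windows (12.5%) and in 14.8% of the 32851 windows of all genes. TATAAA was also in 4 windows (12.5%), against 7.59% of all. The member windows held a median of 22 CG dinucleotides, and 29 of 32 lay above the median of all windows, which was 6. A match is a description of the letters only. The windows printed are those of Sfrp2 and Sfrp5, which had wide falls, of Dkk1 and Dkk2, relatives that changed in opposite directions, of Wnt11, picked because its first window holds both kinds of word, and of the pathway readout Axin2. Other members with a window changed as much or more and are not printed. The sequences are written 5′ to 3′ on the gene's strand with the words searched for in capitals.

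Among the ligands, 4 of 19 fell in both genotypes (Wnt2, Wnt5a, Wnt9a, Wnt11), Wnt3 passed, lower, in wild type, and Wnt7a and Wnt10b rose in both. The other 12 passed in neither genotype. Wnt5a and Wnt11, which are best known for signalling without beta-catenin, and Wnt7a, known for synapse formation in the cerebellum, are described first.

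Wnt5a levels in wild type were 6.38, 6.39 and 6.42 (E18.5), 5.31, 5.71 and 5.42 (P15) and 5.37, 5.29 and 5.18 (P90). In null arrays they were 6.38, 6.10 and 6.44, then 5.68, 5.74 and 5.75, then 5.62, 6.06 and 5.47. Every E18.5 array was above every later one. The fall to P15 was 0.92 ± 0.14 (SE, adjusted p = 5.68e-05) in wild type and 0.58 ± 0.14 (adjusted p = 0.00297) in null organs. The null fall was 0.27 with the values as deposited (adjusted p = 0.252). Wild-type levels of Wnt11 were 4.05, 4.10 and 3.98 (E18.5), then 3.27, 3.21 and 3.02 (P15). In null arrays it went from 4.12, 3.73 and 3.65 to 3.28, 3.38 and 3.13. Levels fell in both genotypes and no P15 array reached the lowest E18.5 array. Wnt11 fell by 0.88 ± 0.12 in wild type (adjusted p = 2.4e-05) and by 0.57 ± 0.12 in null organs (adjusted p = 0.00131; -0.30 and 0.218 with the values as deposited). Its first promoter window (chr7:98834862-98835111, plus strand) holds both a TCF/LEF word, 51 bases before the start, and TATAAA, 29 bases before it, while the window of its second start holds neither.
Wnt11: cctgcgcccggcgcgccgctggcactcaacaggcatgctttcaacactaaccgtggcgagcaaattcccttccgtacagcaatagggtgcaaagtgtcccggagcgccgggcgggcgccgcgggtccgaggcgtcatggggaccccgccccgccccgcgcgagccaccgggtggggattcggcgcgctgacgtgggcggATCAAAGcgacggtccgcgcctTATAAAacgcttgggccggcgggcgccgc

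Wnt7a was the ligand with the widest change. Its wild-type levels were 3.60, 2.94 and 3.39 (E18.5), 5.35, 4.81 and 5.38 (P15) and 4.71, 5.17 and 5.19 (P90). In null arrays they were 3.21, 3.12 and 3.54, then 5.19, 4.88 and 5.01, then 5.14, 5.03 and 5.27. The highest E18.5 array was at 3.60 and the lowest later array at 4.71. The rise to P15 was 1.87 ± 0.19 in wild type (adjusted p = 1.17e-06; 3.66-fold with base 2, 6.49-fold with base e) and 1.73 ± 0.19 in null organs (adjusted p = 2.88e-06). The 11 measured markers of cerebellar and other central neurons rose as well, from a mean level of 3.89 to 4.00 in the wild-type E18.5 arrays to 7.06 to 7.39 at P15, and all 11 passed the test. The part of these cells in the Wnt7a difference was not tested.

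Wnt10b, a ligand that promotes bone formation, rose by 0.63 ± 0.13 in wild type (from 3.05, 3.04 and 3.02 to 3.75, 3.75 and 3.51, adjusted p = 0.00115). In null organs it went from 3.14, 3.61 and 3.77 to 3.73, 4.00 and 4.02, with overlapping arrays, a difference of 0.41 ± 0.13 (adjusted p = 0.0208). That null call was lost without array 1 of the null E18.5 group (0.23, adjusted p = 0.1) and without arrays 2 or 3 of the P15 null group. Wnt9a, a ligand of joint formation, differed by -0.31 ± 0.08 in wild type and -0.50 ± 0.08 in null organs. Wnt2 differed by -0.69 ± 0.19 and -0.52 ± 0.19. The null call for Wnt2 (adjusted p = 0.0419) was lost with any single array of the comparison left out (differences of -0.47 to -0.59). Wnt3 differed by -0.65 ± 0.14 in wild type (adjusted p = 0.00123) and by -0.32 ± 0.14 in null organs (adjusted p = 0.078), and these changes did not differ past the test (adjusted p = 0.657).

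For the 12 ligands that passed in neither genotype, the differences between E18.5 and P15 ran from -0.51 (Wnt8a, null) to 0.29 (Wnt16, null). The Wnt4 probe sets disagreed: in wild type the one used differed by -0.05 and the other by 0.30, and neither passed. Wnt9b, Wnt4 and Wnt5b, among the 12, were high in the arrays that stood together: Wnt9b was at 4.64 and 5.08 in E18.5 null arrays 2 and 3 and at 5.01 and 5.25 in P90 wild-type arrays 1 and 2, and at 3.75 to 4.64 in the other 14. The ligand genes also lie in neighbouring pairs in the genome, Wnt6 with Wnt10a on chromosome 1, Wnt3a with Wnt9a and Wnt9b with Wnt3 on chromosome 11, and Wnt10b with Wnt1 on chromosome 15. No pair had both genes called between E18.5 and P15. Wnt9a fell in both genotypes, Wnt3 in wild type and Wnt10b rose, while their neighbours did not pass. Wnt3a, Wnt1 and Wnt6, each the neighbour of a brighter ligand, were dim, with highest group means of 3.38, 1.64 and 2.92. A change in them could hardly be seen, so the pairs say little about neighbours.

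Of the 4 R-spondins, which bind Lgr receptors and keep Frizzled at the surface, Rspo2 and Rspo3 fell in both genotypes. Rspo2 levels in wild type were 5.26, 5.24 and 5.22 (E18.5), 3.98, 4.13 and 4.19 (P15) and 3.80, 3.58 and 3.67 (P90). The null levels were 5.19, 5.03 and 5.11, then 3.91, 4.03 and 4.10, then 4.01, 3.95 and 3.81. The ages were fully separate from E18.5 to P15, by 1.14 ± 0.08 in wild type (adjusted p = 3.97e-08) and 1.09 ± 0.08 in null organs (adjusted p = 6.81e-08). Rspo3 went from 6.19, 6.23 and 6.20 to 5.09, 5.07 and 4.94 in wild type and from 6.05, 5.97 and 6.06 to 5.25, 5.07 and 5.11 in null arrays. It fell by 1.17 ± 0.09 (adjusted p = 3.69e-08) and 0.89 ± 0.09 (adjusted p = 7.63e-07). Rspo4 fell by 0.52 ± 0.13 in null organs (adjusted p = 0.00371) and differed by -0.29 ± 0.13 in wild type (adjusted p = 0.076). The difference between these changes was -0.23 ± 0.18 (adjusted p = 0.742). The null call of Rspo4 was lost when the 4 arrays that stood together were left out (-0.41, adjusted p = 0.081). Rspo1 passed in neither.

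All 10 Frizzled receptors passed in at least 1 genotype between E18.5 and P15, 7 of them fell in both (Fzd1, Fzd2, Fzd4, Fzd6, Fzd7, Fzd8, Fzd9), and Fzd5 rose in both. Fzd10 passed, lower, in wild type, and Fzd3 passed, higher, in null organs, and neither change differed between genotypes past the test (adjusted p = 0.78 and 0.558). Fzd2 measured 5.94, 5.91 and 6.07 (E18.5), 4.45, 4.59 and 4.11 (P15) and 4.10, 4.29 and 4.11 (P90) in wild-type arrays. Its null levels were 5.83, 5.85 and 5.94, then 4.38, 4.77 and 4.55, then 4.29, 4.46 and 4.11. No later array came within 1 unit of the lowest E18.5 array. Fzd2 fell by 1.59 ± 0.13 in wild type (adjusted p = 9.2e-08) and by 1.31 ± 0.13 in null organs (adjusted p = 8.02e-07).

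Fzd9 went from 5.85, 5.79 and 5.97 to 4.54, 4.09 and 4.27 in wild type and from 5.98, 5.84 and 6.17 to 4.56, 4.44 and 4.43 in null arrays. It fell by 1.57 ± 0.12 (adjusted p = 4.25e-08) and 1.52 ± 0.12 (adjusted p = 6.39e-08). At P90 it stood between these ages, at 4.79, 4.78 and 4.51 in wild type. Fzd8 went from 5.68, 5.76 and 5.87 to 4.92, 4.96 and 4.65 in wild type, a fall of 0.93 ± 0.14, and fell by 0.85 ± 0.14 in null organs. The other falls were smaller: Fzd1 by 0.58 and 0.47, Fzd6 by 0.54 and 0.47, Fzd7 by 0.39 and 0.31, and Fzd4, which also binds the ligand Norrin, by 0.34 and 0.60, in wild type and null organs in that order. The Fzd7 fall in null organs was absent from the values as deposited (0.006). The Fzd4 call in wild type was lost without array 2 of the E18.5 group or arrays 2 or 3 of the P15 group.

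The receptors that did not fall were Fzd3, known for axon guidance and hair cell orientation, and Fzd5. Fzd3 in null arrays was at 6.21, 5.99 and 6.13 (E18.5), 6.46, 6.47 and 6.57 (P15) and 6.03, 6.08 and 6.27 (P90), so the middle age was highest. Its null rise was 0.39 ± 0.08 (adjusted p = 0.000841), against 0.14 ± 0.08 in wild type (adjusted p = 0.169), and the difference between these 2 changes was 0.25 ± 0.11 (adjusted p = 0.558). Fzd5 rose by 0.37 ± 0.13 in wild type (from 4.09, 4.35 and 4.40 to 4.55, 4.81 and 4.59) and by 0.36 ± 0.13 in null organs (from 4.26, 4.10 and 4.59 to 4.73, 4.58 and 4.72, overlapping). The Fzd5 calls were lost with several single arrays left out (wild type 0.28 without E18.5 array 1 and 0.29 without P15 array 2). Fzd10 differed by -0.65 ± 0.24 in wild type (adjusted p = 0.0428), and 5 of the 6 arrays of that comparison ended this call when left out (-0.47 to -0.66).

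Both co-receptors fell in both genotypes. Lrp6 measured 7.13, 7.12 and 7.12 (E18.5), 6.45, 6.45 and 6.48 (P15) and 6.45, 6.43 and 6.44 (P90) in wild-type arrays. In null arrays it was at 7.12, 6.97 and 7.13, then 6.63, 6.52 and 6.57, then 6.43, 6.58 and 6.51. The fall to P15 was 0.66 ± 0.06 in wild type (adjusted p = 5.66e-07) and 0.50 ± 0.06 in null organs (adjusted p = 1.18e-05; 0.238 with the values as deposited, where the fall was 0.24). Lrp5, whose loss lowers bone mass, fell by 0.41 ± 0.11 (adjusted p = 0.00621) and 0.39 ± 0.11 (adjusted p = 0.00874). The null Lrp5 call was lost when the 4 arrays that stood together were left out (-0.30, adjusted p = 0.154).

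All 5 secreted Wnt-binding antagonists of the set passed in both genotypes, and they split. Sfrp1, Sfrp2 and Sfrp5 fell and Sfrp4 and Wif1 rose. Sfrp2 had the largest change of any member in wild type. Its levels were 7.40, 7.30 and 7.35 (E18.5), 5.34, 5.18 and 5.12 (P15) and 4.80, 4.80 and 5.75 (P90) in wild type. In null arrays they were 7.30, 7.10 and 7.29, then 5.25, 5.06 and 5.22, then 5.24, 4.69 and 4.56. The E18.5 arrays lay more than 1 unit above all others, and P90 wild-type array 3 lay above the other arrays of its group. Sfrp2 fell by 2.14 ± 0.21 in wild type (adjusted p = 7.75e-07; 4.41-fold with base 2, 8.49-fold with base e) and by 2.06 ± 0.21 in null organs (adjusted p = 1.35e-06).

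Sfrp1 measured 6.58, 6.45 and 6.54 (E18.5), 4.62, 4.86 and 4.52 (P15) and 4.46, 4.08 and 4.36 (P90) in wild-type arrays. The null levels were 6.53, 6.47 and 6.56, then 4.70, 5.32 and 5.31, then 4.95, 4.80 and 4.52. The genotypes lay together at E18.5, and the null arrays were mostly above the wild-type arrays later. The fall to P15 was 1.86 ± 0.16 in wild type (adjusted p = 1.77e-07) and 1.41 ± 0.16 in null organs (adjusted p = 3.39e-06). Sfrp5 went from 5.25, 5.22 and 5.30 to 3.52, 3.67 and 3.61 in wild type and from 5.31, 4.89 and 5.31 to 3.70, 3.59 and 3.62 in null arrays. It fell by 1.66 ± 0.11 (adjusted p = 1.25e-08) and 1.53 ± 0.11 (adjusted p = 3.01e-08) and stayed at 3.53 to 3.91 at P90. The promoter windows of these falling antagonists, Sfrp2 (chr3:83766071-83766320, plus strand) and Sfrp5 (chr19:42202253-42202502, minus strand), hold neither of the words searched for.
Sfrp2: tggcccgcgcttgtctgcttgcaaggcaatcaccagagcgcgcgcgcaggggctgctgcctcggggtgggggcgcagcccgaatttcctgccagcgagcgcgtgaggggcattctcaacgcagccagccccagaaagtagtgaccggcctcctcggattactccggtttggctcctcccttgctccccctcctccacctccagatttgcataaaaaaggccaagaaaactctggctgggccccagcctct
Sfrp5: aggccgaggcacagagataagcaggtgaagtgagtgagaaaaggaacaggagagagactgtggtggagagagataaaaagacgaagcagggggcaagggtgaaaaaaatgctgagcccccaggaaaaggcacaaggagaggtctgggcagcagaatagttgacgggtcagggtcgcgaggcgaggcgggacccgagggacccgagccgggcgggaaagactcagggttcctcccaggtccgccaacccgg

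Sfrp4, which is expressed in bone and connective tissue and whose loss thins cortical bone, moved the other way. It measured 4.57, 4.77 and 4.53 (E18.5), 6.13, 6.28 and 5.63 (P15) and 6.47, 6.34 and 6.40 (P90) in wild-type arrays. The null levels were 4.69, 4.88 and 4.45, then 6.02, 6.16 and 6.17, then 6.75, 6.94 and 6.36. Each later array was above each E18.5 array. Sfrp4 rose by 1.39 ± 0.17 in wild type (adjusted p = 5.66e-06) and by 1.44 ± 0.17 in null organs (adjusted p = 4.48e-06). Wif1 peaked at P15: wild-type levels were 6.05, 5.76 and 5.84, then 6.786, 7.001 and 6.786, then 5.43, 5.54 and 5.72. In null arrays they were 5.90, 5.55 and 6.02, then 6.43, 6.79 and 6.76, then 5.80, 5.90 and 5.47. The P15 arrays stood above all others in both genotypes. The rise was 0.97 ± 0.14 in wild type (adjusted p = 5.36e-05) and 0.84 ± 0.14 in null organs (adjusted p = 0.00025).

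**Figure D2:**
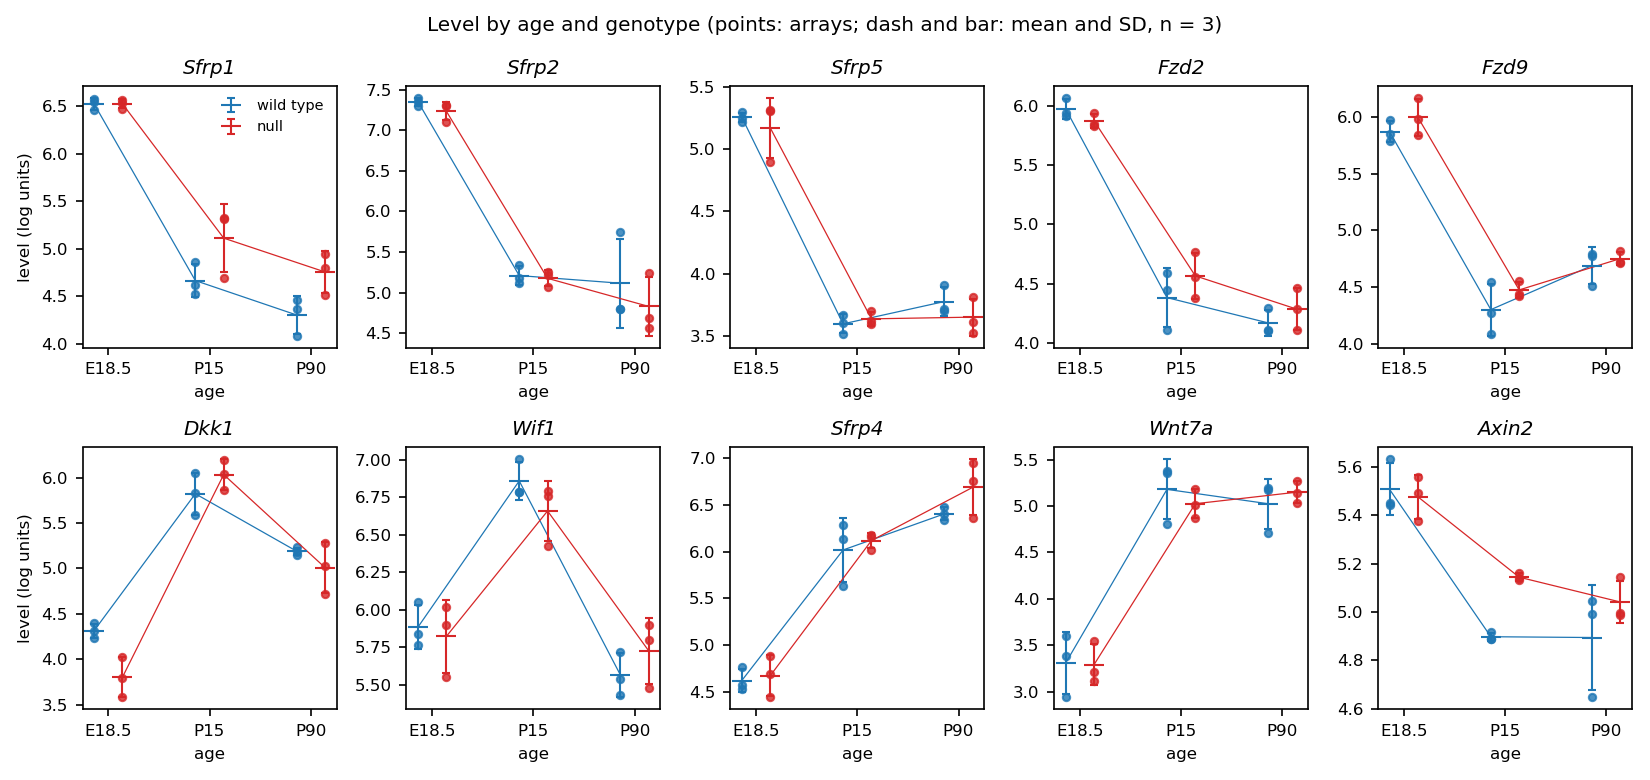
Level in log units (vertical axes, which do not start at 0 and differ between panels) by age for 10 members, with points for arrays, dashes and bars for the mean and SD of 3 arrays, blue for wild type and red for null. Sfrp1, Sfrp2, Sfrp5, Fzd2, Fzd9 and Axin2 are highest at E18.5, Dkk1 and Wif1 are highest at P15, and Sfrp4 and Wnt7a are lowest at E18.5.

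The Dickkopf genes also moved in opposite directions. Dkk1, the Lrp5 and Lrp6 blocker that restrains bone formation, measured 4.39, 4.31 and 4.24 (E18.5), 5.83, 6.05 and 5.59 (P15) and 5.19, 5.15 and 5.23 (P90) in wild-type arrays. In null arrays it was at 3.80, 3.58 and 4.02, then 5.86, 6.20 and 6.04, then 5.03, 5.28 and 4.72. The ages were fully separate within each genotype, and at E18.5 the null arrays were all below the wild-type arrays. Dkk1 rose to P15 by 1.51 ± 0.15 in wild type (adjusted p = 7.29e-07) and by 2.23 ± 0.15 in null organs (adjusted p = 1.49e-08; 4.7-fold with base 2, 9.31-fold with base e), the largest rise of any member. The rise in null organs exceeded that in wild type by 0.72 ± 0.21 (95% interval 0.28 to 1.17), which did not pass over all genes (adjusted p = 0.27). This test of the difference between genotypes called 0 members and 0.145% of all genes, and at an unadjusted p under 0.05 there were 6 members and 8.51% of all genes.

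Dkk2 went from 5.37, 5.38 and 5.29 to 3.80, 3.84 and 3.87 in wild type and from 5.11, 5.46 and 5.35 to 4.03, 3.89 and 4.03 in null arrays, and stayed at 3.97 to 4.23 at P90. The lowest E18.5 array was at 5.11 and the highest later array at 4.23. It fell by 1.51 ± 0.09 (adjusted p = 5.04e-09, the smallest of the set in wild type) and 1.32 ± 0.09 (adjusted p = 2.05e-08). Dkk3, a divergent family member, fell by 1.02 ± 0.10 in wild type (from 6.36, 6.32 and 6.36 to 5.27, 5.40 and 5.31) and by 0.72 ± 0.10 in null organs. Dkk4 passed in neither genotype. The windows of Dkk1 (chr19:30549497-30549746, minus strand) and Dkk2 (chr3:132085042-132085291, plus strand) are shown because these relatives changed in opposite directions. That of Dkk1 holds TCF/LEF words 117 and 98 bases before the start and TATAAA at 54, and that of Dkk2 holds TATAAA at 32.
Dkk1: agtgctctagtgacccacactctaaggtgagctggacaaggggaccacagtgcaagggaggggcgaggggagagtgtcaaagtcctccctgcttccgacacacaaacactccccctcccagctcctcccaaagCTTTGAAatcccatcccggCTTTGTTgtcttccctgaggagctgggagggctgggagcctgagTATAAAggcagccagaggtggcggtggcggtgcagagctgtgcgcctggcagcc
Dkk2: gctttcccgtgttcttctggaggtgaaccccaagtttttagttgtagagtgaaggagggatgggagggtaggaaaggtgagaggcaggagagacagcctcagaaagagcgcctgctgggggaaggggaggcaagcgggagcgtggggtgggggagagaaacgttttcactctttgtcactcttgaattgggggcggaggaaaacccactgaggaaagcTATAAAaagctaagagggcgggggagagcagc

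Axin2, a scaffold of the beta-catenin destruction complex that is itself a direct target of the pathway and is widely used as its readout, measured 5.63, 5.45 and 5.44 (E18.5), 4.89, 4.92 and 4.89 (P15) and 4.65, 5.04 and 4.99 (P90) in wild-type arrays. The null levels were 5.56, 5.38 and 5.49, then 5.16, 5.13 and 5.14, then 4.99, 4.99 and 5.14. The E18.5 arrays were highest in both genotypes, and the null P15 arrays lay between the wild-type P15 and the E18.5 arrays. Axin2 fell by 0.61 ± 0.10 in wild type (adjusted p = 8.86e-05) and by 0.33 ± 0.10 in null organs (adjusted p = 0.0112). The null fall was 0.02 with the values as deposited (adjusted p = 0.933). Its window (chr11:108920099-108920348, plus strand), shown because the gene is the pathway's readout, holds none of the words searched for.
Axin2: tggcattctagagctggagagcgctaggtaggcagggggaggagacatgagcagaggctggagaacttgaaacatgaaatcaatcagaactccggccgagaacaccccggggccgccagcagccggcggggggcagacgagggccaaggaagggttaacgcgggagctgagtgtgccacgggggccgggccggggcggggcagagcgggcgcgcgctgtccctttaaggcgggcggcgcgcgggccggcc

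**Figure D3:**
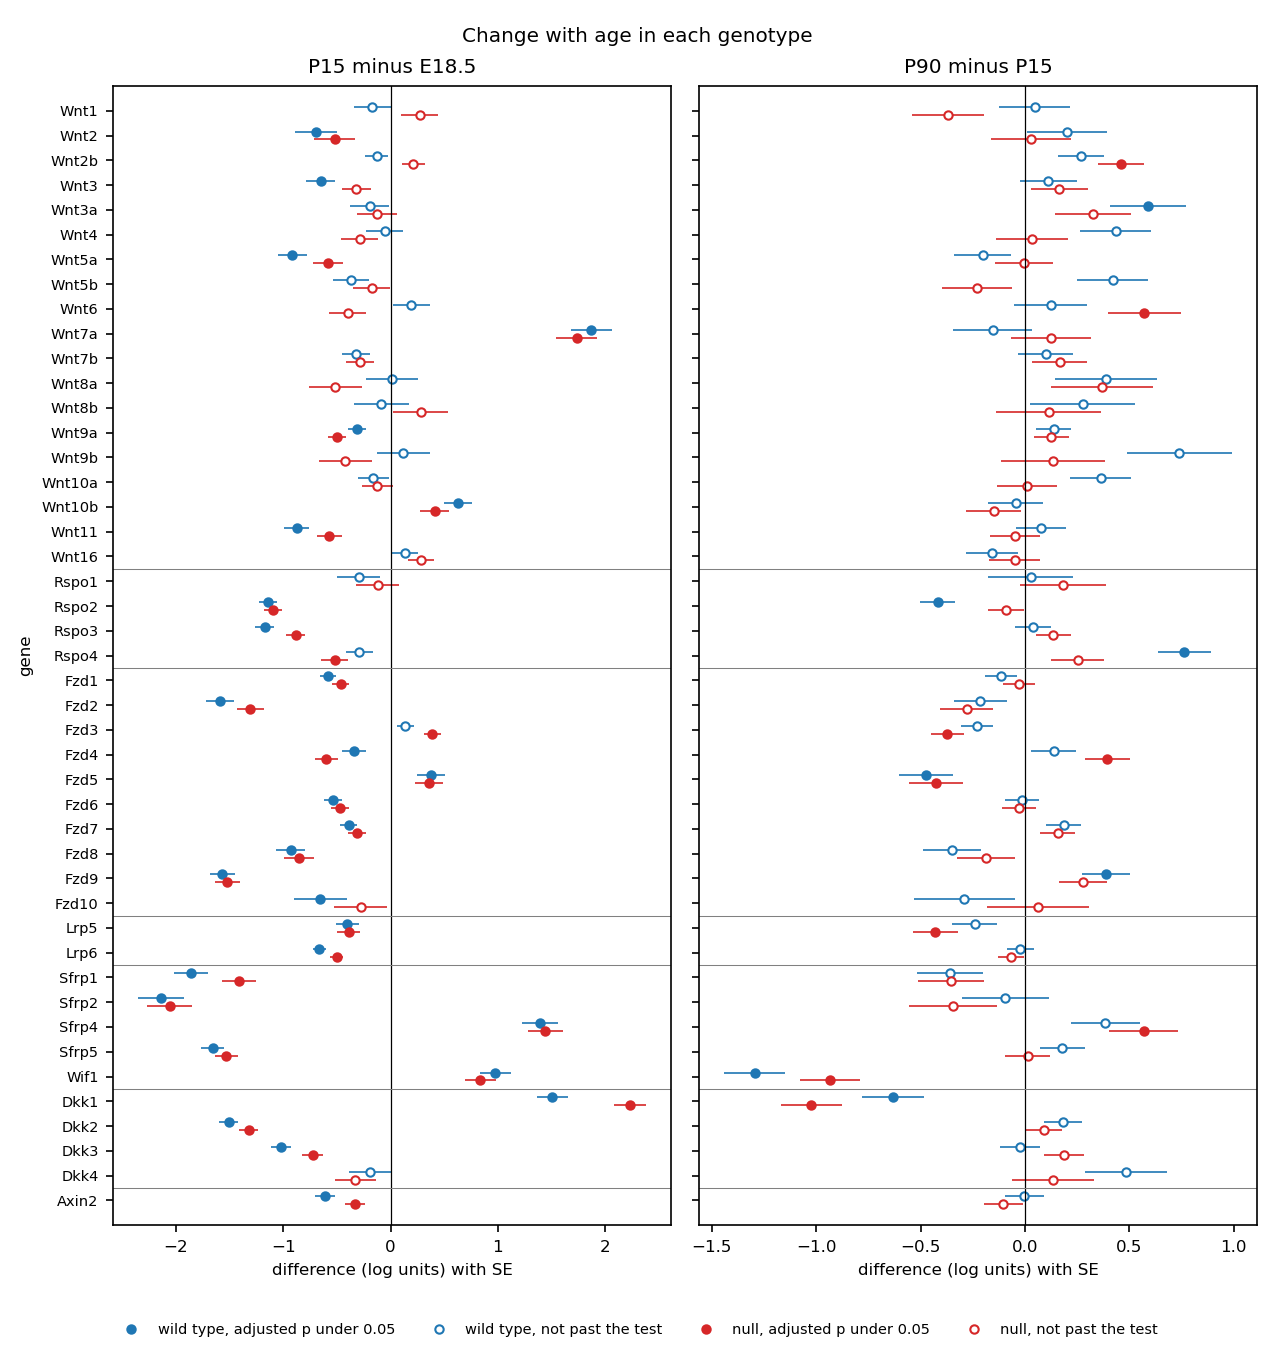
Difference between ages (horizontal axes, log units, with SE) for each of the 45 genes (rows, grouped by role), from E18.5 to P15 at the left and from P15 to P90 at the right, in wild type (blue) and null (red), filled where the adjusted p was under 0.05. Filled points lie mostly left of 0 in the first comparison, with 23 lower and 6 higher in wild type, and are few in the second.

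Between P15 and P90 few members changed. In wild type 4 fell and 3 rose, 15.6% of the set against 17.9% of all genes (9.78% lower, 8.08% higher), and in null organs 5 fell and 4 rose, 20% against 13% (6.83% lower, 6.12% higher). Wif1, Dkk1 and Fzd5 fell in both genotypes, and 4.97% of all genes did so. No member rose in both, and 2.86% of all genes did. These comparisons use the same P15 arrays as those from E18.5 to P15, so the later falls of Wif1, Dkk1 and Fzd5 are not independent of their earlier rises. Wif1 fell by 1.29 ± 0.14 in wild type (adjusted p = 9.65e-05) and by 0.93 ± 0.14 in null organs (adjusted p = 0.000833), with no overlap between ages. Dkk1 fell by 0.63 ± 0.15 (adjusted p = 0.0104) and 1.02 ± 0.15 (adjusted p = 0.00048), also with no overlap. Fzd5 fell by 0.47 ± 0.13 (adjusted p = 0.0228) and 0.43 ± 0.13 (adjusted p = 0.043).

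The remaining calls were made in 1 genotype each. In wild type Rspo2 fell by 0.42 ± 0.08 (adjusted p = 0.0047) while Rspo4 rose by 0.76 ± 0.13 (adjusted p = 0.00143), Wnt3a by 0.59 ± 0.18 (adjusted p = 0.0377) and Fzd9 by 0.39 ± 0.12 (adjusted p = 0.032). Rspo4 was at 2.85, 2.67 and 2.52 at P15 and at 3.42, 3.68 and 3.23 at P90 in wild type, and at 2.84, 2.86 and 2.68, then 2.98, 3.00 and 3.15 in null arrays. The wild-type P90 arrays were thus the high ones. In null organs Lrp5 fell by 0.43 ± 0.11 (adjusted p = 0.0161) and Fzd3 by 0.37 ± 0.08 (adjusted p = 0.0058), while Wnt2b rose by 0.46 ± 0.11 (adjusted p = 0.0123), Fzd4 by 0.40 ± 0.11 (adjusted p = 0.0265), Sfrp4 by 0.57 ± 0.17 (adjusted p = 0.0349) and Wnt6 by 0.57 ± 0.17 (adjusted p = 0.0427). No member differed between genotypes in its change from P15 to P90 past the limma test, where 0.015% of all genes were called (smallest adjusted p = 0.765). At an unadjusted p under 0.05 there were 3 members (Wnt5b, Rspo2 and Rspo4) and 6.43% of all genes.

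These later counts depend on scaling and on single arrays. With the values as deposited they were 19 higher and 2 lower in wild type and 24 and 2 in null organs. The median of all genes was then 0.20 and 0.39 higher at P90, and 5568 and 7762 of all genes were called. Subtracting array medians gave 11 higher and 9 lower in wild type, and 2 and 5 in null organs, with 7770 and 2907 of all genes called. In wild type 12 passed without P90 array 3, 4 without P90 array 1 or 2, 3 without P15 array 2, and 1 (Wif1) without the 4 arrays that stood together. Over all genes 4895 passed in wild type without P90 array 3, and 416 without those 4 arrays. In null organs 4 passed without P15 array 2 and 5 without P15 array 3 or any P90 array. Over all genes these fits called 1302, 1355 and 1835 to 2004, in that order. With a term for sex-linked signal 3 passed in wild type and 5 in null organs, with 874 and 1830 of all genes called. Wif1 in both genotypes and Dkk1 in null organs passed under all of these settings.

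Other genes of the pathway were taken from lists chosen for their function, with 82 of 83 measured. From E18.5 to P15, 41 were lower (50%) and 12 higher (14.6%) in wild type, against 21.9% and 19.7% of all genes. In null organs 30 were lower (36.6%) and 17 higher (20.7%), against 20.5% and 20.3%. From P15 to P90, 17 were lower (20.7%) and 2 higher (2.44%) in wild type, against 9.78% and 8.08%, and in null organs 19 were lower (23.2%) and 2 higher (2.44%), against 6.83% and 6.12%. The list counts that follow are small and are read against these shares of all genes. Among the enzymes and carriers that make Wnt ligands, Porcn, which attaches the lipid, rose by 1.22 (adjusted p = 2.96e-06) and Wls, which carries ligands to the surface, fell by 0.45 (adjusted p = 0.00301) in wild type. Of the 4 co-receptors of signalling without beta-catenin, Ror1, Ror2 and Ptk7 fell in both genotypes, by 0.88, 0.94 and 1.00 in wild type. Of the 5 R-spondin receptors and their ligases, 4 fell in wild type, with Lgr4 at -0.49, Rnf43 at -0.48 and Znrf3 at -0.45, and 1 fell and 1 rose in null organs.

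Of 12 further antagonists, 6 fell and 3 rose in wild type. Sost, an Lrp5 and Lrp6 blocker made by osteocytes, rose by 1.73 (from 3.44, 3.35 and 3.22 to 5.09, 5.16 and 4.96). Draxin rose by 1.09. Frzb, a cartilage gene of the Sfrp family that is outside the set because of its symbol, fell by 1.19. Among the 11 measured nuclear factors, 7 fell in wild type, led by Tle1 (1.34), Tcf7l1 (1.15) and Tcf7l2 (0.88). Of 13 planar cell polarity genes, 8 fell, with Prickle1 at -1.22, and 3 rose, with Celsr3 at 1.78. Of 14 measured beta-catenin target genes, 7 fell and 1 rose from E18.5 to P15 in wild type, with Ccnd1 at -1.31. From P15 to P90 in wild type 7 fell, with Nkd1 at -0.90, Lef1 at -0.73 and Myc at -0.71. The lists overlap: Rnf43, Znrf3, Lef1 and Nkd1 are among the target genes that are also counted in another list. None of the 82 genes passed for genotype at any age.

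Markers of the tissues around the sensory organ moved with the same ages. From E18.5 to P15 in wild type, all 12 cartilage markers fell (median -2.54; mean level 7.72 to 7.80 in the E18.5 arrays and 5.04 to 5.49 at P15) and all 9 measured osteoblast and osteocyte markers rose (median 1.51; 5.19 to 5.44 and 6.70 to 7.11). Of 8 fibroblast markers 4 fell and 1 rose, and of 14 hair cell markers 10 fell. Mean levels of blood cell markers were higher at P15 than at E18.5 in the wild-type arrays. The 9 granulocyte markers went from 2.73 to 2.87 up to 6.55 to 6.77. For the 9 B cell markers the means were 3.56 to 3.65 and 5.71 to 6.01, and for the 4 erythroid markers 4.60 to 4.63 and 6.14 to 6.63. From P15 to P90 in wild type 7 of the 9 osteoblast and osteocyte markers fell. Their part in the member differences was not tested.

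**Figure D4:**
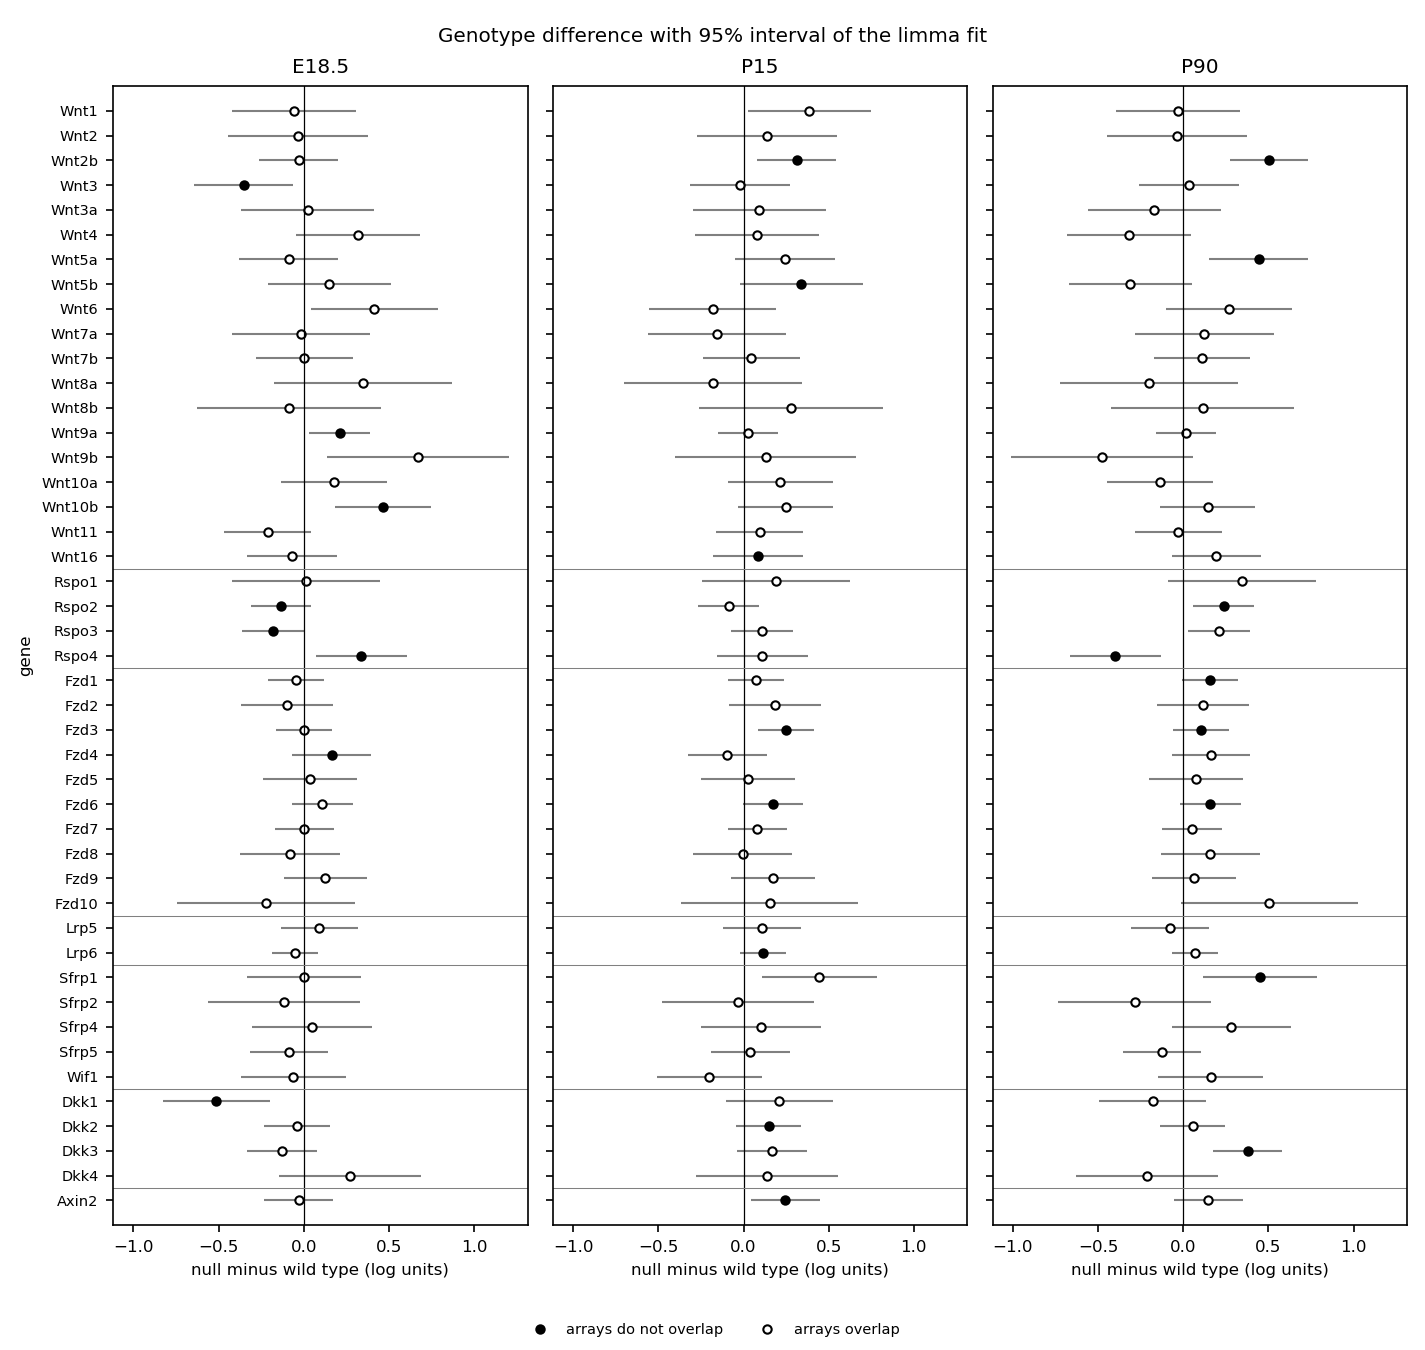
Difference between null and wild type (horizontal axes, log units) with its 95% interval for each of the 45 genes (rows, grouped by role) at E18.5, P15 and P90, filled where the 3 null and 3 wild-type arrays did not overlap. No member passed at an adjusted p under 0.05, and 8 filled points lie at E18.5, 8 at P15 and 9 at P90.

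No member passed the limma test between null and wild-type organs at any age. Of all genes, 0.0802% were called at E18.5, 0.015% at P15 and 0.296% at P90. The last share is 59 genes, and with the term for sex-linked signal 0 genes were called at P90. At an unadjusted p under 0.05, 7 members stood out at E18.5, 5 at P15 and 7 at P90, against 12.5%, 6.97% and 11.1% of all genes. For the mean over the 3 ages the count was 0 after adjustment (0.0351% of all genes) and 8 before it (7.68% of all genes). An F-test of equal genotype differences across the 3 ages called 0 members (0.256% of all genes; smallest adjusted p = 0.16, for Rspo4). At an unadjusted p under 0.05 it gave 9 members and 14.5% of all genes. The null mean was higher in 21 of 45 members at E18.5, 36 at P15 and 30 at P90, with medians of -0.02, 0.11 and 0.11 against -0.02, 0.01 and 0.01 for all genes.

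Mean levels of several marker lists separated the genotypes at the same ages without overlap. At E18.5 the 9 osteoblast and osteocyte markers were lower in the null arrays (4.72 to 5.03 against 5.19 to 5.44), as were the 12 cartilage markers (7.38 to 7.43 against 7.72 to 7.80) and the 8 osteoclast markers (4.03 to 4.14 against 4.27 to 4.45), and the 14 skeletal muscle markers were higher (6.57 to 7.08 against 5.80 to 6.27). At P15 and P90 the null arrays were higher for the 11 supporting cell markers (5.26 to 5.30 against 5.04 to 5.21, then 5.33 to 5.54 against 5.13 to 5.25). They were also higher for the 8 otic fibrocyte and mesenchyme markers (6.08 to 6.14 against 5.92 to 6.06, then 6.07 to 6.45 against 5.943 to 6.003) and the 9 otoconia and dark cell markers (5.15 to 5.22 against 4.98 to 5.14, then 5.14 to 5.40 against 4.85 to 4.93). The mean of the 14 hair cell markers was higher at P90 (3.71 to 3.88 against 3.46 to 3.57). These values are list means, and single markers did not all follow them. Among the hair cell markers, Myo7a, Espn and Strc had lower means in the null at P90, and the others higher ones. At P15 the otoconia and dark cell markers Oc90, Slc26a4 and Atp1b2 were lower in the null. Atp1b2 was also lower at P90. Of the supporting cell markers, Hes5 was lower at P15 and P90 and Cldn14 at P90. Of the fibrocyte markers, Cldn11 was lower at P15 and Car3 was not higher at P90. At E18.5 the bone markers Sost and Mepe, the cartilage marker Snorc and the osteoclast markers Ctsk and Oscar were not lower. Of single markers in these lists, 4 of muscle passed at E18.5 and 1 each of hair cells and of otoconia and dark cells at P90, all higher in the null. The other lists that separated were muscle, fibroblasts, adipocytes and cell cycle at P15 and B cells and erythroid cells at P15 and P90, all lower in the null. The part of these cell types in the member differences was not tested.

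Arrays of the genotypes did not overlap for 8 members at E18.5, 4 of them higher and 4 lower in the null, where 19.7% of all genes did not overlap (7.95% higher, 11.7% lower). At P15 there were 8, all higher in the null, against 16.5% (8.75% higher, 7.75% lower). At P90 there were 9, of which 8 were higher, against 10.5% (6.42% higher, 4.06% lower). At E18.5, Dkk1 was lower in the null by 0.51 ± 0.15 (means 3.80 ± 0.22 and 4.31 ± 0.08, SD, n = 3; 95% interval -0.83 to -0.20; adjusted p = 0.195), beside the lower bone and cartilage markers at that age. Wnt10b was higher by 0.47 ± 0.13 (adjusted p = 0.186). Its null arrays were at 3.14, 3.61 and 3.77, the upper ones being those that stood together. Without the 4 such arrays, which left only array 1 in the null group, the difference was 0.10. Without array 1 of the null group it was 0.65 (adjusted p = 0.0191). Wnt3 was lower by 0.35 ± 0.14 and Rspo4 higher by 0.34 ± 0.13.

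Wnt2b, a ligand known for its part in eye and limb development, had the smallest adjusted p of the set at P90. Its levels were 4.69, 4.48 and 4.50 in wild type and 5.11, 5.18 and 4.89 in null arrays at P90, 4.22, 4.26 and 4.37 against 4.60, 4.52 and 4.68 at P15, and 4.49, 4.43 and 4.32 against 4.47, 4.13 and 4.56 at E18.5. The genotypes were apart at both postnatal ages and overlapped before birth. The difference was 0.50 ± 0.11 at P90 (95% interval 0.27 to 0.73; adjusted p = 0.063), 0.31 ± 0.11 at P15 (adjusted p = 0.532) and -0.03 ± 0.11 at E18.5. The P90 difference passed when dim genes were left out of the adjustment (adjusted p = 0.0419), with array weights (0.57, adjusted p = 0.0163) and without null array 3 (0.59, adjusted p = 0.0296). It stayed between 0.44 and 0.59 under every alternative, and with a term for sex it was 0.52 ± 0.18 (adjusted p = 0.981).

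Among the antagonists, Sfrp1 was 0.45 ± 0.16 higher in the null at P15 (adjusted p = 0.551), where 1 null array lay among the wild-type arrays, and 0.45 ± 0.16 higher at P90 (adjusted p = 0.314), where none did. Dkk3 at P90 was at 5.28, 5.21 and 5.41 in wild type and at 5.60, 5.75 and 5.68 in null arrays, a difference of 0.38 ± 0.10 (adjusted p = 0.129; 0.0428 without wild-type array 3). Wnt5a at P90 was higher by 0.44 ± 0.14 (adjusted p = 0.248) and Rspo2 by 0.24 ± 0.08 (adjusted p = 0.315). Rspo4 at P90 was lower by 0.40 ± 0.13 (adjusted p = 0.255; 0.0487 without wild-type array 3). Without array 3 the wild-type group held arrays 1 and 2, which were among the arrays that stood together. Over 18 alternative settings the Rspo4 difference ran from -0.52 to -0.18 and passed in 1. The P90 difference of Dkk3 ran from 0.26 to 0.505 and passed in 2 of 18. For Axin2 the null arrays at P15 were all above the wild-type arrays, by 0.25 ± 0.10 (95% interval 0.04 to 0.45; adjusted p = 0.604), and for the receptor Fzd3 they were above by 0.25 ± 0.08 (adjusted p = 0.518). Array weights brought 2 members past the threshold at P15 (Fzd3 and Sfrp1), 3 at P90 (Wnt2b, Wnt5a and Dkk3), 2 for the mean (Wnt2b and Wnt10b) and 4 in the test of equal differences.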

How the data were processed

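Values of 28853 probe sets in 18 arrays came as 1 table. The deposited values are read here as natural log from their size, but the base is unstated: the highest, 10.03, would be an intensity of 22700 in natural log and of 1050 in log2. How the authors corrected background and summarized probes is not stated in the sources. Per the labels' protocols, RNA was extracted with Trizol and 100 ng was amplified and labelled. Array medians ran from 3.88 to 4.82, so arrays were quantile normalised. Names came from the platform annotation (21789 probe sets with 1 symbol, 1621 with several, 5443 not listed), updated through RefSeq (21698 matched). The probe set with the highest mean stood for a gene.

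All 18 arrays were fitted with 6 group means by lmFit and eBayes of limma 3.58.1 (R 4.3.3), where the prior had 2.98 degrees of freedom, and p-values were adjusted by Benjamini-Hochberg over 19938 genes with a threshold of 0.05. The fit was tested on simulated arrays. P-values measure only the spread between arrays, and 3 arrays per group limit the precision. Members and lists were chosen with earlier results of these data known. All members may be named, and of other pathway genes those past the test, at most 3 per list and direction in a comparison. Alternatives covered normalisation, probe sets, dim genes, variance model, arrays in the fit, weights, replicate block, sex and left-out arrays. Leaving out the 4 arrays that stood together was chosen after seeing the data. It left only E18.5 null array 1 and P90 wild-type array 3 in their groups, so its tests take their spread from the other groups.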

Additional observations from a re-analysis of the deposited data

How the results depend on the processing

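No member passed for genotype at E18.5, P15, P90, for the mean or in the test of equal differences with quantile normalisation. The same held with the values as deposited, array medians subtracted, cyclic loess, averaged probe sets and a trend with robust variance. It also held with the replicate block, the sex term and the term for the 4 arrays that stood together. Exceptions were dim genes left out (1 at P90) and array weights (2 at P15, 3 at P90, 2 for the mean, 4 for equal differences). Over all genes, 102 passed at P90 with dim genes left out, against 59 in the main fit. Array weights gave 170, 587, 70 and 1079 genes in the order of the member counts. From E18.5 to P15, 29 members passed in each genotype, and 22 to 32 in wild type and 26 to 30 in null organs under the alternatives, except 18 in null organs as deposited. From P15 to P90, the 7 wild-type calls became 21 as deposited, 20 with medians subtracted and 4 with only the compared groups. They became 3 with the sex term and 3 with the term for the 4 arrays. Over all genes 5568, 7770, 1041, 874 and 1022 passed in these fits, in that order. The 9 null calls became 26 as deposited, 5 with only the compared groups, 16 with array weights and 5 with the sex term. Over all genes 7762, 1454, 5718 and 1830 passed in these fits, in that order. As deposited, Fzd7 from E18.5 to P15 (0.006) and Fzd5 from P15 to P90 (0.004), both in null organs, turned sign. The cause of these changes was not tested. With 1 array left out, counts ran from 27 to 29 in both genotypes from E18.5 to P15, from 3 to 12 in wild type and 4 to 7 in null organs from P15 to P90, from 0 to 1 for genotype at E18.5, 0 at P15, 0 to 3 at P90, 0 for the mean and 0 to 4 for equal differences. In the fits that gave 1, 3 and 4 members, 387, 674 and 851 of all genes passed.

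Same-numbered arrays of different groups correlated at -0.34 to 0.24, and 6 of 45 pairs exceeded 0.1. Differently numbered arrays correlated at -0.35 to 0.48, and 14 of 90 pairs exceeded 0.1. No pairing by number was seen, but such correlations cannot exclude it, and the labels state none. With the replicate block 28 and 29 members passed from E18.5 to P15 in wild type and null organs, 7 and 8 from P15 to P90, and 0 for genotype. No detection calls were used, so signal over background is unknown for dim members.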
